A study of Mus musculus with 54 samples.

Results

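Serpina6, Nr3c1, Nr3c2, Hsd11b1, Akr1d1 and Srd5a1 carry, sense and convert corticosteroid hormones. They were chosen by name from the deposited expression table as the hormone's blood carrier, its receptors and the liver enzymes that act on it, and make up 6 of its 24346 gene symbols. All 6 passed the filter on low values, which kept 10932 genes. RNA of whole mouse liver had been sequenced from 54 libraries, 1 liver each, in 3 genotypes at 6 times of day 4 h apart, with 3 livers in each of the 18 groups. In RE mice the core clock gene Bmal1 (listed as Arntl) carried a floxed STOP, and Syt10-Cre restored it in the suprachiasmatic nucleus, the brain region that sets daily time. KO mice carried the STOP allele without the Cre, and WT mice expressed Bmal1 in all tissues, so RE and KO livers shared the silenced allele. The times run from ZT0 to ZT20, in zeitgeber hours. Age and sex are not given in the labels, and the p-values measure only the spread between these livers.

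Glucocorticoids leave the adrenal gland in a daily cycle. In blood they travel bound to corticosteroid-binding globulin, a liver protein encoded by Serpina6, and inside cells they bind the glucocorticoid receptor Nr3c1 and, with higher affinity, the mineralocorticoid receptor Nr3c2. Liver also sets the hormone's local amount: Hsd11b1 regenerates active corticosterone from its inert 11-keto form, while the reductases Akr1d1 and Srd5a1 start its breakdown. On RefSeq's GRCm38.p6 annotation all 6 are protein coding genes, Serpina6 at chr12:103646630-103657218, Nr3c1 at chr18:39410545-39519421, Nr3c2 at chr8:76898083-77245012, Hsd11b1 at chr1:193221640-193264045, Akr1d1 at chr6:37529978-37574921 and Srd5a1 at chr13:69573449-69611485.

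Values are FPKM, fragments scaled by transcript length and library, which allows levels to be compared between genes. Differences and amplitudes are on the log2(FPKM + 1) scale, and a gene was called where its limma p, after Benjamini-Hochberg adjustment over all genes tested, was under 0.05. A level difference compares the means over the 6 times. An amplitude runs from the mean to the peak of a 24 h cosine, and the size of a rhythm difference is the length of the difference between 2 fitted cosines. Over all libraries Hsd11b1 had the highest level of the 6 genes, with a mean of 344 FPKM, at percentile 97.0 of the genes tested. Serpina6 followed at 113 FPKM, Akr1d1 at 86.4 FPKM and Srd5a1 at 50.7 FPKM. Both receptors were lower, with Nr3c1 at 12.0 FPKM and Nr3c2 at 1.19 FPKM, at percentile 10.2.

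Of 19 core clock genes, 8 had a called 24 h rhythm in RE livers, 0 in KO livers and 19 in WT livers. Over all genes tested the shares were 46.8%, 0.0366% and 34.8% in that order. Arntl itself spanned 7.60 to 15.5 FPKM in RE livers, 9.76 to 14.2 FPKM in KO livers and 0.202 to 10.3 FPKM in WT livers, a whole-gene value that does not check the STOP allele. Hepatocyte markers were high in every library. Of 8, 2 were called higher and 2 lower in RE than in WT livers, and 2 higher and 3 lower in KO than in WT livers. Between RE and KO, 1 was called higher in RE. Of 6 adrenal cortex markers, 4 (Cyp11a1, Cyp11b1, Cyp11b2 and Mc2r) had a median of 0. Kupffer cell markers, of the liver's resident macrophages, had summed medians of 100 FPKM in RE livers, 133 FPKM in KO livers and 169 FPKM in WT livers. All 9 were called lower in RE than in WT livers and 4 were called lower in KO than in WT livers; bile duct markers had summed medians of 64.2 FPKM in RE, 68.9 FPKM in KO and 27.5 FPKM in WT livers, with 2 of 5 called higher in each of RE and KO. Of 10 periportal hepatocyte markers, 4 were called lower in each of RE and KO, and 1 was called higher in KO. Of 10 pericentral ones, 3 were called higher and 2 lower in each. Of 3 lymphocyte markers tested, 3 were called lower in RE and 0 in KO, and of 4 red cell markers 2 and 1. Of all genes tested, 45.9% were called in RE against WT and 42.3% in KO against WT. The part of these cell types in the results below was not tested. Livers of one group differed by a median SD of 0.161 in RE, 0.142 in KO and 0.115 in WT (log2). The RE liver numbered 2 at ZT16 had the lowest median correlation to its group, 0.959. The other livers of that group had 0.972 and 0.971, and the highest of all livers was 0.992. RE ZT16 liver 2 also had extreme values of Hsd11b1 and Srd5a1, so results that rest on it are given with and without it.

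Most of the glucocorticoid handling genes had lower transcript levels in RE and KO livers than in WT livers. Of the 6 genes, 5 were called lower in RE than in WT livers (45.9% of all genes tested were called, 21.7% lower) and 5 were called lower in KO than in WT livers (42.3% of all genes were called, 20.2% lower). Not called were Nr3c1 in RE and Akr1d1 in KO. None of the 6 was called higher in either comparison, against 24.2% of all genes in RE and 22.1% in KO. The median level difference of the 6 genes was -0.44 in RE against WT, beside 0.01 over all genes, and -0.37 in KO against WT, beside 0.00 over all genes. Both comparisons use the same WT livers. Between RE and KO livers, 1 of the 6 was called, lower in RE (0.192% of all genes were called, 0.119% lower; 21 genes, or 13 to 172 without 1 liver). In whole liver, fewer cells of a type and less RNA per cell cannot be told apart. The STOP allele was not confined to liver. Loss of Bmal1 in liver and its loss in other tissues therefore cannot be told apart either.

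**Figure D1:**
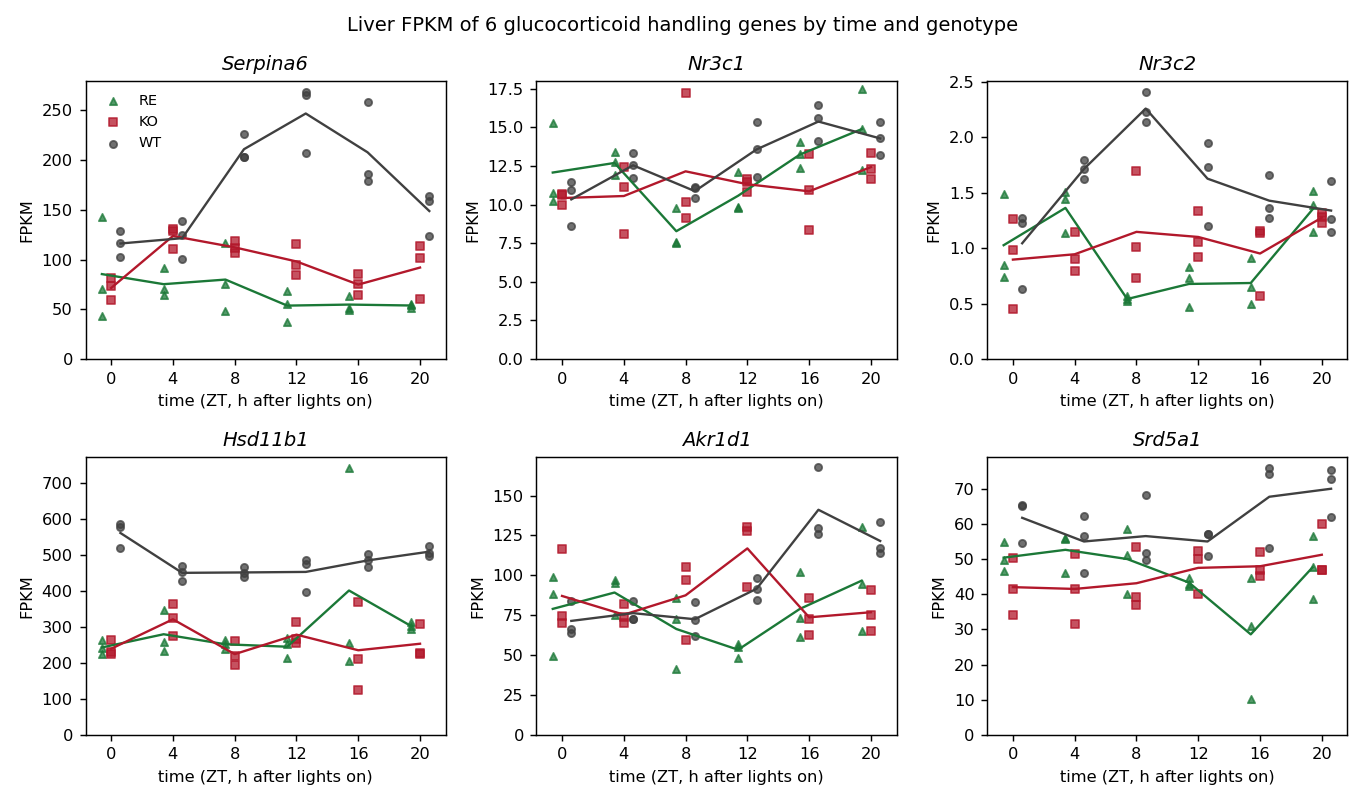
FPKM of the 6 genes (vertical axes, each starting at 0) against time of day (ZT, h) in RE (triangles), KO (squares) and WT (circles) livers; each point is 1 liver, lines join the means of 3 livers, and points are set slightly apart sideways. Serpina6 reached a mean of 247 FPKM in WT livers at ZT12, against 53.8 FPKM in RE and 98.1 FPKM in KO livers.

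Serpina6, the carrier, had the largest level difference of the 6 genes in RE livers. It ranged from 37.8 to 142 FPKM in RE livers with a median of 59.6, from 59.1 to 131 FPKM in KO livers with a median of 98.0, and from 101 to 268 FPKM in WT livers with a median of 171. RE livers thus lay mostly below the WT range, KO livers overlapped its lower end, and the order RE, KO, WT held for the medians. The mean was 67.2 ± 26.4 FPKM in RE, 95.4 ± 23.2 FPKM in KO and 175 ± 55.5 FPKM in WT livers (SD over times and livers, n = 18 each). Relative to WT, Serpina6 fell by 1.38 in RE livers (SE 0.11, adjusted p = 9.45e-14) and fell by 0.84 in KO livers (SE 0.11, adjusted p = 3.49e-08). It was also the 1 member called between RE and KO, lower in RE by a difference of -0.54 (95% interval -0.76 to -0.32, adjusted p = 0.0174). With RE and KO livers fitted without the WT ones, that call was lost at the same difference (adjusted p = 0.120).

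The Serpina6 difference was a difference in shape as well as level. At ZT12 the 3 livers held 68.2, 37.8 and 55.4 FPKM in RE, 115, 84.9 and 94.2 FPKM in KO, and 268, 207 and 266 FPKM in WT. At ZT0 the values were 43.6, 70.3 and 142 FPKM in RE, 74.0, 81.4 and 59.1 FPKM in KO, and 103, 117 and 128 FPKM in WT. The 3 genotypes were fully separated at ZT12, whereas at ZT0 the highest RE liver exceeded every WT liver. In WT the group means ran from 116 FPKM at ZT0 to 247 FPKM at ZT12, a ratio of 2.12, with an amplitude of 0.58 (SE 0.11) that peaked at ZT12.5 (adjusted p = 0.000319). KO livers had an amplitude of 0.32 with a fitted peak at ZT7.05 that was not called (adjusted p = 0.337; unadjusted p = 0.0220). In RE livers the amplitude was also 0.32, with a fitted peak at ZT3.78 and an adjusted p of 0.0482, a call that was lost in 40 of the 54 fits that each left out 1 liver (adjusted p up to 0.150).

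The rhythm of Serpina6 differed from that of WT in both genotypes, by 0.82 in RE livers (adjusted p = 0.000975) and by 0.61 in KO livers (adjusted p = 0.0216). Without WT ZT16 liver 0, at 259 FPKM, the KO value was no longer called (adjusted p = 0.0510). RE against WT was called lower at ZT8, ZT12, ZT16 and ZT20, by -1.48, -2.21, -1.89 and -1.44. KO against WT was called lower at ZT8, ZT12 and ZT16, by -0.90, -1.32 and -1.45. The widest gaps thus fell where the WT level was high. The ZT8 call of KO was lost without WT ZT8 liver 0 or 1 or KO ZT8 liver 1 (adjusted p up to 0.0739).

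Of the receptors, Nr3c1 differed little in level. It ranged from 7.50 to 17.5 FPKM in RE livers, from 8.10 to 17.2 FPKM in KO livers and from 8.61 to 16.4 FPKM in WT livers, with medians of 12.2, 11.0 and 12.9 FPKM in that order. The 3 ranges lay almost on top of each other. Nr3c1 averaged 12.0 ± 2.62 FPKM in RE, 11.3 ± 2.08 FPKM in KO and 12.8 ± 2.10 FPKM in WT livers (SD, n = 18 each). The level difference of RE against WT was -0.11 (95% interval -0.24 to 0.03, adjusted p = 0.184). That of KO against WT was -0.17 (95% interval -0.30 to -0.04, adjusted p = 0.0311), and it was not called without WT ZT0 liver 2, WT ZT12 liver 1, KO ZT4 liver 0, KO ZT8 liver 0, KO ZT8 liver 2 or KO ZT16 liver 2 (adjusted p up to 0.0671).

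Nr3c1 had a shallow 24 h rhythm in RE livers, with an amplitude of 0.29 peaking at ZT20.4 (adjusted p = 0.00160). At ZT8 the RE livers held 7.50, 9.76 and 7.57 FPKM and at ZT20 they held 14.9, 17.5 and 12.3 FPKM. These times were picked as those of lowest and highest mean, so their lack of overlap is no further test of the rhythm. The amplitude was 0.04 in KO livers (adjusted p = 0.934). In WT livers it was 0.21, peaking at ZT16.0 (adjusted p = 0.0317). That call was lost without WT ZT0 liver 0, WT ZT4 liver 0, WT ZT4 liver 1, WT ZT12 liver 1, WT ZT16 liver 1, WT ZT16 liver 2 or WT ZT20 liver 2 (adjusted p up to 0.0840). Neither rhythm difference from WT was called, at 0.29 for RE (adjusted p = 0.0792) and 0.17 for KO (adjusted p = 0.450). At ZT16 KO livers, at 13.3, 10.9 and 8.35 FPKM, were called lower than WT livers, at 14.1, 16.4 and 15.6 FPKM (-0.48, adjusted p = 0.0349). The call was lost without WT ZT16 liver 1, WT ZT16 liver 2, KO ZT16 liver 1 or KO ZT16 liver 2 (adjusted p up to 0.252).

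Nr3c2, the mineralocorticoid receptor, was near the limit of the filter, and differences of so low a gene are understated on the log2(FPKM + 1) scale. It ranged from 0.466 to 1.52 FPKM in RE livers with a median of 0.840, from 0.448 to 1.70 FPKM in KO livers with a median of 1.09, and from 0.633 to 2.41 FPKM in WT livers with a median of 1.62. The ranges overlapped, with the RE and KO medians below that of WT. Nr3c2 averaged 0.940 ± 0.389 FPKM in RE, 1.05 ± 0.301 FPKM in KO and 1.57 ± 0.443 FPKM in WT livers (SD, n = 18 each). The level was lower by a difference of -0.41 in RE (adjusted p = 1.02e-06) and -0.32 in KO (adjusted p = 7.31e-05), both against WT. With a pseudocount of 0.1 these differences were -0.72 and -0.53, while the Nr3c2 calls of any time difference in WT and of KO against WT at ZT4 were lost (adjusted p = 0.0561 and 0.0576).

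Nr3c2 in RE and WT livers differed most at ZT8. At ZT8 the livers held 0.540, 0.565 and 0.519 FPKM in RE, 0.729, 1.70 and 1.01 FPKM in KO, and 2.23, 2.14 and 2.41 FPKM in WT. At ZT20 they held 1.52, 1.38 and 1.15 FPKM in RE, 1.28, 1.23 and 1.32 FPKM in KO, and 1.15, 1.60 and 1.26 FPKM in WT. At ZT4 they held 1.45, 1.51 and 1.13 FPKM in RE, 0.791, 1.15 and 0.898 FPKM in KO, and 1.63, 1.72 and 1.80 FPKM in WT. ZT8 was thus the lowest time in RE and the highest in WT, at ZT20 the 3 genotypes overlapped, and RE was highest at ZT4, with a mean of 1.36 FPKM. The fitted RE peak lay between these high times, near ZT0, where the RE mean was 1.03 FPKM. The amplitude was 0.27 with a peak at ZT23.5 in RE (adjusted p = 0.00238), 0.05 in KO (adjusted p = 0.917) and 0.26 with a peak at ZT8.88 in WT (adjusted p = 0.00549). The rhythm difference of RE from WT was 0.50 (adjusted p = 0.000489); that of KO from WT was 0.26 and was not called (adjusted p = 0.137).

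Single-time differences of Nr3c2 from WT were called at ZT8, ZT12 and ZT16 in RE (-1.08, -0.64 and -0.53) and at ZT4 and ZT8 in KO (-0.48 and -0.63). The ZT16 call of RE was lost without RE ZT16 liver 2 or WT ZT16 liver 2 (adjusted p up to 0.0757). The ZT8 call of KO was lost without KO ZT8 liver 0 (adjusted p = 0.0553), and its ZT4 call was lost without any of 5 of the 6 livers compared, all but KO ZT4 liver 1 (adjusted p up to 0.143).

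Hsd11b1, which regenerates active corticosterone, was lower in mean level in RE and KO livers than in WT livers. It ranged from 206 to 743 FPKM in RE livers with a median of 256, from 124 to 370 FPKM in KO livers with a median of 257, and from 398 to 587 FPKM in WT livers with a median of 481. Every KO liver lay below every WT liver, as was so for 0.732% of all genes tested. Every RE liver but 1 did so too, the exception being ZT16 liver 2 at 743 FPKM, the highest value of all 54. Its group also held 206 and 256 FPKM. Hsd11b1 averaged 288 ± 119 FPKM in RE, 259 ± 61.5 FPKM in KO and 486 ± 47.8 FPKM in WT livers (SD, n = 18 each).

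The level difference of Hsd11b1 from WT was -0.82 in RE (SE 0.11, adjusted p = 4.10e-08) and -0.94 in KO (SE 0.11, adjusted p = 1.71e-09). Without RE ZT16 liver 2 the RE difference was -0.91 (adjusted p = 2.84e-12). RE and KO differed by 0.12 (95% interval -0.09 to 0.34, adjusted p = 0.649), or 0.03 without that liver. The 6 WT group means, 451 to 562 FPKM, all stood above the highest RE or KO mean, 402 FPKM in RE livers at ZT16.

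No genotype had a called rhythm of Hsd11b1 with all libraries in the fit. The amplitude was 0.16 in RE (adjusted p = 0.401), 0.13 in KO (adjusted p = 0.814) and 0.14 in WT (adjusted p = 0.537). WT livers were less spread than KO livers, with a coefficient of variation of 9.85% against 23.8%. The 41.5% of RE livers includes ZT16 liver 2 at 743 FPKM, and the other RE livers spanned 206 to 349 FPKM. Fitted alone, WT livers gave a called rhythm of the same size (adjusted p = 0.00543). In WT the ZT0 livers held 587, 521 and 578 FPKM and the ZT4 livers 429, 471 and 453 FPKM. These were the times of highest and lowest mean, picked for that, so their lack of overlap is no test of a rhythm. Single-time differences from WT were called at ZT0, ZT8 and ZT12 in RE (-1.21, -0.84 and -0.89) and at ZT0, ZT8, ZT16 and ZT20 in KO (-1.23, -1.02, -1.18 and -1.02). The RE call at ZT8 was lost without any 1 of the 6 livers compared, and that at ZT12 without RE ZT12 liver 1 or WT ZT12 liver 2 (adjusted p up to 0.0761 and 0.0572).

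**Figure D2:**
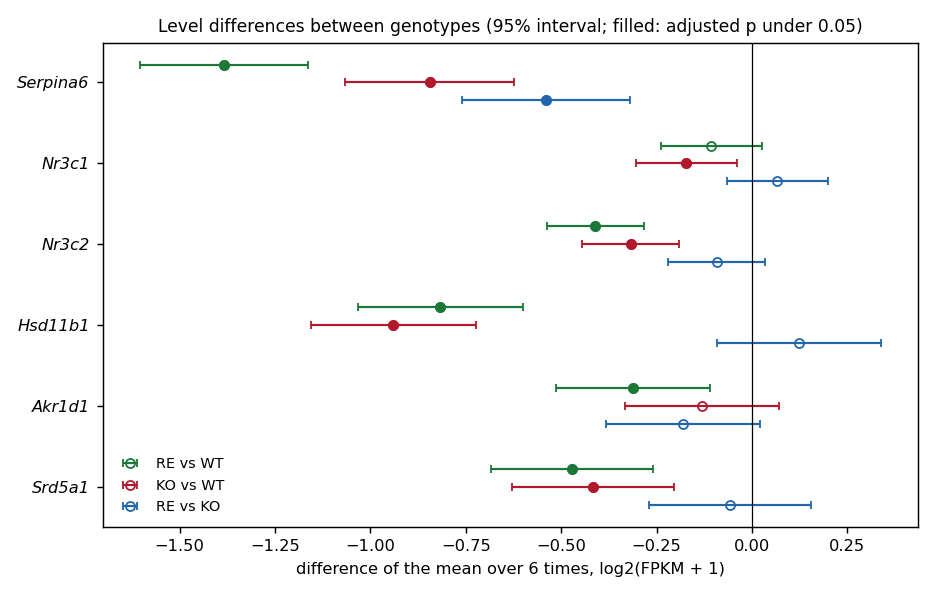
Level differences (horizontal axis, difference of the means over 6 times on the log2(FPKM + 1) scale) of RE against WT, KO against WT and RE against KO for the 6 genes; bars are 95% intervals and filled points passed the test. Every filled point lies left of 0, and the Serpina6 difference of RE against WT, at -1.38, lies farthest from 0.

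Akr1d1, the 5-beta-reductase, and Srd5a1, a 5-alpha-reductase, both take part in the first, A-ring step of corticosteroid breakdown, and Akr1d1 also acts in bile acid synthesis. On GRCm38.p6, the assembly also called mm10, Akr1d1 was the 1 member, of 4 whose RefSeq promoter window was searched, to hold any of 4 motifs in the 250 bases before the transcript start that RefSeq's promoter table uses. That start lies inside the gene span for all 4, so the windows of Nr3c2 and Hsd11b1 lie wholly within the gene, and those of Akr1d1 and Srd5a1 overlap it by 195 and 22 bases. The motifs, without flanking bases, were searched on both strands after the values had been seen. They were CACGTG (E-box), TTANNTAA (D-box core), AGGTCA (a half-site that REV-ERB and ROR clock receptors can read) and AGAACA (glucocorticoid receptor half-site). They occur in 6.02%, 5.44%, 14% and 16.1% of 32841 RefSeq windows of that length. The Akr1d1 window held AGGTCA in 2 places on the opposite strand, at positions -232 and -210 relative to that transcript start, or 37 and 15 bases before the gene span, and 1.36% of windows held at least 2. The stretch at chr6:37529923-37529977, plus strand, is shown because it is the part of the window before the gene span and holds both, in capitals as TGACCT:
Akr1d1: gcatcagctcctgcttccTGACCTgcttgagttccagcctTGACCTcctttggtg
The letters are a description of the sequence and not evidence of binding.

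By a test that does not separate peak time from amplitude, the rhythm of Akr1d1 was called different from WT in RE and KO livers. In level, Akr1d1 was called different from WT in RE livers only. It ranged from 41.0 to 130 FPKM in RE livers with a median of 74.2, from 59.7 to 130 FPKM in KO livers with a median of 78.6, and from 62.2 to 168 FPKM in WT livers with a median of 84.3. The ranges overlapped widely. The mean was 77.2 ± 23.5 FPKM in RE, 86.2 ± 21.7 FPKM in KO and 95.7 ± 29.4 FPKM in WT livers (SD, n = 18 each). The level was lower in RE than in WT (-0.31, 95% interval -0.51 to -0.11, adjusted p = 0.00986). For KO against WT the difference was -0.13 (95% interval -0.33 to 0.07, adjusted p = 0.305).

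In WT livers Akr1d1 rose at night. At ZT16 it held 73.2, 61.5 and 102 FPKM in RE livers, 85.8, 72.4 and 62.7 FPKM in KO livers and 168, 126 and 130 FPKM in WT livers. At ZT12 it held 48.0, 55.1 and 56.9 FPKM in RE livers, 130, 92.5 and 128 FPKM in KO livers and 84.7, 98.4 and 91.7 FPKM in WT livers. WT livers were highest at ZT16, KO livers were highest at ZT12, and RE livers were lowest at ZT12. The amplitude was 0.31 with a peak at ZT22.7 in RE (adjusted p = 0.0338), 0.18 in KO (adjusted p = 0.651) and 0.49 with a peak at ZT16.9 in WT (adjusted p = 0.000832). The RE call was lost without RE ZT0 liver 0, ZT0 liver 2, ZT8 liver 2, ZT12 liver 0, ZT20 liver 0 or ZT20 liver 1 (adjusted p up to 0.123). With RE livers fitted alone it was lost too (adjusted p = 0.158).

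The rhythm of Akr1d1 differed from WT by 0.57 in RE (adjusted p = 0.0155) and by 0.52 in KO (adjusted p = 0.0361). The KO call was lost without any 1 of 14 livers, 8 of KO (liver 0 or 1 at ZT4 or ZT8, liver 1 or 2 at ZT16, liver 0 or 2 at ZT20) and 6 of WT, at ZT4 (0 or 2), ZT8 (1 or 2), ZT16 (0) or ZT20 (0), with an adjusted p of up to 0.0700. RE against WT was called lower at ZT12 and ZT16 (-0.77 and -0.85), and KO against WT at ZT16 (-0.93). RE was lower than KO at ZT12 (-1.10, adjusted p = 0.0292), where 0.467% of all genes were called. These single-time calls were lost without WT ZT16 liver 0 at ZT16 in both genotypes, without RE ZT16 liver 1 for RE, and, at ZT12, without WT ZT12 liver 1 or 2 or RE ZT12 liver 0 for RE against WT (adjusted p up to 0.0821). RE against KO was lost without liver 0 or 2 of either group (adjusted p up to 0.173).

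Srd5a1 was lower in both genotypes than in WT by like amounts. It ranged from 10.1 to 58.7 FPKM in RE livers with a median of 46.4, from 31.6 to 60.1 FPKM in KO livers with a median of 46.8, and from 46.0 to 75.8 FPKM in WT livers with a median of 59.6. The RE and KO medians were nearly the same and lay at the lower edge of the WT range. The lowest value was that of RE ZT16 liver 2; the other livers of its group held 30.9 and 44.8 FPKM. Srd5a1 averaged 45.4 ± 11.4 FPKM in RE, 45.6 ± 7.50 FPKM in KO and 61.0 ± 9.45 FPKM in WT livers (SD, n = 18 each). The level difference from WT was -0.47 in RE (adjusted p = 0.000293), or -0.37 without RE ZT16 liver 2 (adjusted p = 5.89e-05), and -0.42 in KO (adjusted p = 0.00132). RE and KO differed by -0.06 (95% interval -0.27 to 0.16).

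A 24 h rhythm of Srd5a1 was called in RE livers, with an amplitude of 0.41 peaking at ZT3.61 (adjusted p = 0.00627). It rested on 1 liver: without RE ZT16 liver 2 the amplitude came to 0.21, with an adjusted p of 0.0693. The amplitude was 0.15 in KO (adjusted p = 0.753) and 0.18 in WT (adjusted p = 0.346), neither called. The rhythm difference of RE from WT, 0.54 (adjusted p = 0.0314), was 0.34 without RE ZT16 liver 2 (adjusted p = 0.0643). It was also not called without RE ZT4 liver 0, RE ZT4 liver 1, RE ZT20 liver 1, WT ZT4 liver 2, WT ZT16 liver 1 or WT ZT16 liver 2 (adjusted p up to 0.0743). At ZT16 Srd5a1 was lower in RE than in WT by a difference of -1.42, or -0.83 without that liver (adjusted p = 0.00306). RE against KO at ZT16 was -0.95 (adjusted p = 0.0347), or -0.36 and not called without it (adjusted p = 0.360); it was not called either without KO ZT16 liver 0 or 1.

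**Figure D3:**
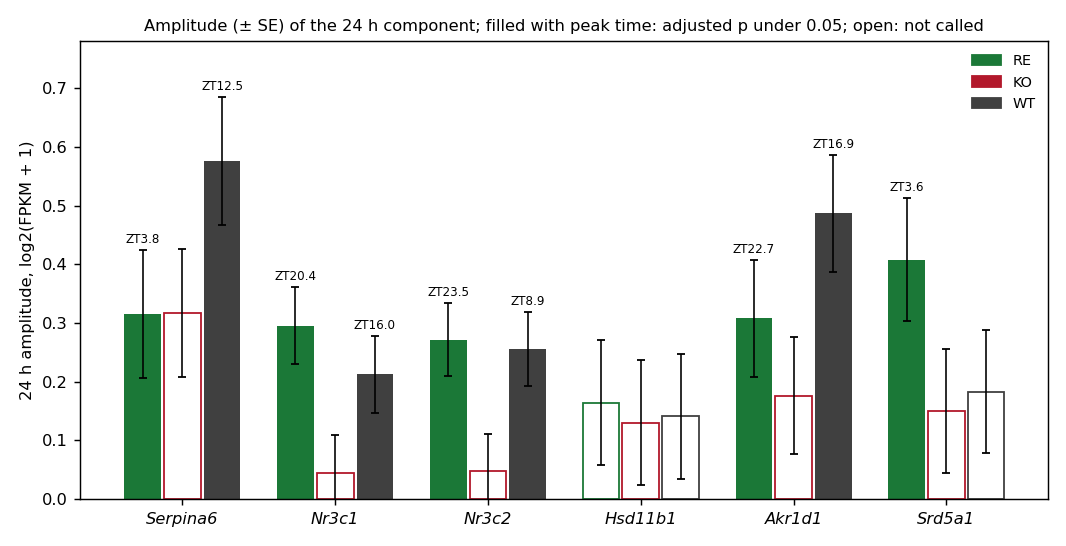
Amplitude of the fitted 24 h cosine (vertical axis, log2(FPKM + 1), from 0) in RE, KO and WT livers; bars carry 1 SE, filled bars with a peak time passed the test and open bars did not. No KO bar is filled, and the Serpina6 amplitude in WT livers, 0.58, is the tallest.

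Counted over the 6 genes, a 24 h rhythm was called for 5 in RE livers (46.8% of all genes), for 0 in KO livers (0.0366% of all genes, 4 genes, or 0 to 161 without 1 liver; 1301 genes had an unadjusted p under 0.05, Serpina6 among them) and for 4 in WT livers (34.8% of all genes). Without RE ZT16 liver 2 the RE count was 4, and in RE livers fitted alone it was 2. A test for any difference between times, with no shape assumed, called 3 of the 6 genes in RE (39.3% of all genes), 0 in KO (0.0457%) and 3 in WT (23.5%). In RE livers these were Nr3c1, Nr3c2 and Srd5a1, the last of which was lost without RE ZT16 liver 2, and in WT livers they were Serpina6, Nr3c2 and Akr1d1. Nr3c2 in WT was lost without WT ZT0 liver 0 or WT ZT8 liver 2 (adjusted p up to 0.0740). The called peaks stood at ZT20.4 to ZT3.78 in RE and at ZT8.88 to ZT16.9 in WT. The RE peaks after ZT0 were those of Serpina6 (ZT3.78) and Srd5a1 (ZT3.61). The Serpina6 call was lost in 40 of the 54 fits without 1 liver, and the Srd5a1 call rested on RE ZT16 liver 2. The SE of the called peak times was 0.848 to 1.32 h in RE and 0.724 to 1.18 h in WT.

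The rhythm difference from WT was called for 4 of the 6 genes in RE (14.1% of all genes), Serpina6, Nr3c2, Akr1d1 and Srd5a1, and for 2 in KO (9.06%), Serpina6 and Akr1d1. Between RE and KO it was called for 0 of the 6 (3.07% of all genes; 2579 genes had an unadjusted p under 0.05). Its size was 0.26 to 0.55 there, with adjusted p-values of 0.0612 to 0.455. Whether the RE and KO time courses of these genes are alike is not shown by that.

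**Figure D4:**
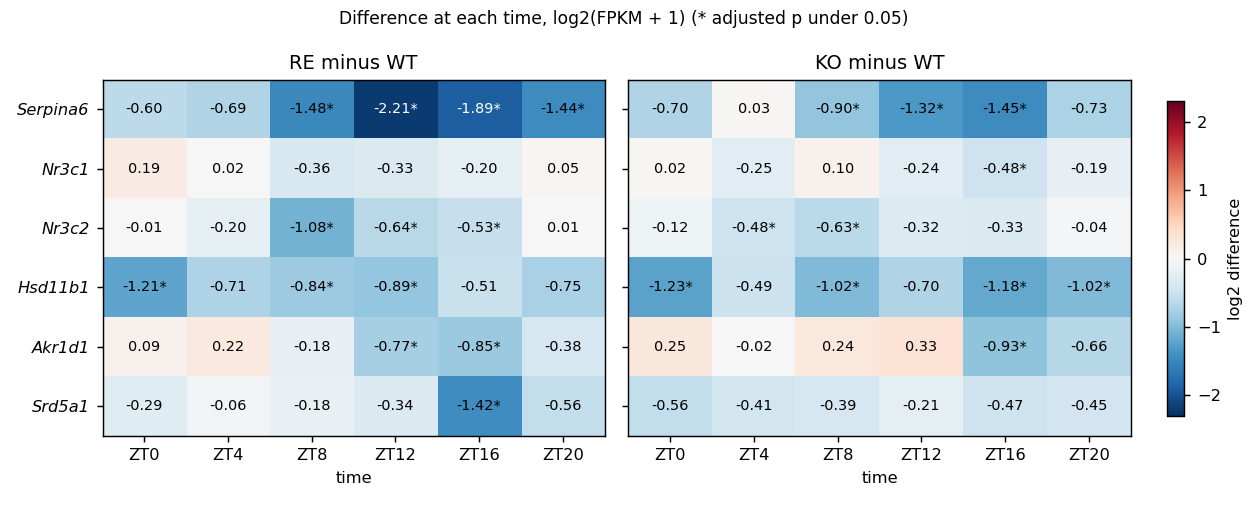
Difference at each time (columns) for the 6 genes (rows), RE minus WT on the left and KO minus WT on the right, on the log2(FPKM + 1) scale, with colour running from blue (lower than WT) to red (higher); asterisks mark an adjusted p under 0.05. Serpina6 at ZT12 in RE, -2.21, is the darkest cell, and no asterisk stands on a positive value.

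By single times, 13 of 36 differences of the 6 genes were called in RE against WT and 11 in KO against WT, all lower. Between RE and KO, 2 were called, Akr1d1 at ZT12 and Srd5a1 at ZT16 (3.27% of all genes were called at ZT16). In RE against WT the counts were 1 at ZT0 (9.39% of all genes), 0 at ZT4 (7.67%; 2301 genes had an unadjusted p under 0.05), 3 at ZT8 (13.4%), 4 at ZT12 (18.9%), 4 at ZT16 (18.7%) and 1 at ZT20 (11.6%). In KO against WT they were 1 at ZT0 (8.65%), 1 at ZT4 (11.4%), 3 at ZT8 (11.5%), 1 at ZT12 (18.3%), 4 at ZT16 (14.6%) and 1 at ZT20 (9.37%). The share of all genes called was also highest from ZT8 to ZT16 in RE and in KO, and in KO at ZT12 the 1 call was no more than at ZT0. At ZT16 all RE livers lay below all WT livers for 5 of the 6 genes (16.1% of all genes), Hsd11b1 being the exception through its liver at 743 FPKM, and all KO livers did so for 6 of the 6 (20% of all genes). When 1 liver at a time was left out, 8 of the 13 and 6 of the 11 were called in every fit.

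Across the 18 group means the genes moved together only loosely. Pearson's r between pairs of the 6 ran from 0.178 (Nr3c1 and Srd5a1) to 0.692 (Serpina6 and Nr3c2), as a description over means that share genotypes, times and libraries. Among 6136 other genes averaging 5 FPKM or more, the closest to Serpina6 were Inmt (r = 0.955), Tnks1bp1 (0.938) and Clcn2 (0.932). Nearest to Hsd11b1 were Pbld2 (r = 0.973), Fam213b (0.953) and Il1rap (0.952), and nearest to Srd5a1 were Car3 (0.932), Tlcd2 (0.902) and Alas2 (0.884). For Nr3c1 they were Fam8a1 (0.942), Tnpo1 (0.911) and Tcaim (0.904), for Nr3c2 Gpr146 (0.885), Olfml1 (0.847) and Lima1 (0.840), and for Akr1d1 Dpyd (0.881), Pcyt1a (0.874) and Antxr2 (0.872).

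Other enzymes that convert corticosteroids and related sterols changed in both directions. Of 20 tested, 13 were called in RE against WT, 8 higher and 5 lower, and 12 in KO against WT, 6 higher and 6 lower, beside 45.9% and 42.3% of all genes. Their median difference was 0.12 in RE and 0.00 in KO. H6pd, which supplies Hsd11b1 with reduced cofactor, averaged 111 ± 34.5 FPKM in RE, 102 ± 14.2 FPKM in KO and 92.4 ± 13.6 FPKM in WT livers (SD, n = 18 each). It was called higher in RE (0.22, adjusted p = 0.00845), while the KO difference was 0.14 (adjusted p = 0.102). Hsd11b2, which inactivates the hormone in kidney, was under the filter, at 0.0554 FPKM or less in every liver.

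Hsd3b7, whose known substrates are bile acid precursors and not corticosteroids, averaged 433 ± 83.7 FPKM in RE, 420 ± 50.4 FPKM in KO and 288 ± 92.8 FPKM in WT livers. It was higher by 0.63 in RE and 0.60 in KO (adjusted p = 3.70e-12 and 1.16e-11). Within the Akr1c family, whose near-identical members can share reads, Akr1c6 was called higher in RE and KO (0.47 and 0.40) and Akr1c19 was called lower (-1.25 and -0.81). Akr1c20 was called higher in both (0.58 and 0.45). In this list 9 genes had a called 24 h rhythm in RE (46.8% of all genes), 0 in KO (0.0366%) and 10 in WT (34.8%). Hsd3b7 peaked at ZT5.85 in RE and ZT2.98 in WT, and Srd5a3, a polyprenol reductase despite its name, peaked at ZT6.59 in RE and ZT5.04 in WT.

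Of 5 tested genes of other hormone carriers and steroid exporters, 2 were called in RE and 4 in KO, beside 45.9% and 42.3% of all genes. Ttr, transthyretin, which carries thyroxine, averaged 7000 ± 1736 FPKM in RE, 6097 ± 781 FPKM in KO and 8151 ± 1051 FPKM in WT livers, and was called lower in RE (-0.24) and KO (-0.42). Abcc2, an exporter of conjugated steroids, was called lower in KO (-0.25), and Serpina7, the thyroxine-binding globulin, was called higher in KO (0.79). Serpina7 reached 583 FPKM in 1 RE liver, against at most 66.2 FPKM in KO and 71.5 FPKM in WT livers. Alb, which also binds corticosterone, accounts for the other call in each comparison. It is listed at 0 in all 18 WT livers, and its lowest value in RE and in KO livers was 0 too, so no fold is given.

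Of 19 receptor chaperones and co-regulators tested, 7 were called in RE against WT, 2 higher and 5 lower, with a median difference of -0.05, and 5 in KO against WT, 1 higher and 4 lower, with a median of -0.08. These counts are no larger a share than the 45.9% and 42.3% of all genes called. Fkbp5, which holds the receptor in a low-affinity state and is itself a receptor target, averaged 8.23 ± 7.58 FPKM in RE, 5.18 ± 1.90 FPKM in KO and 10.4 ± 5.11 FPKM in WT livers. It was lower by -0.49 in RE (adjusted p = 0.0208) and by -0.81 in KO (adjusted p = 0.000208). The co-activator Ncoa3 was lower in RE (-0.24) and KO (-0.16), and Ppargc1a was higher (0.27 and 0.32). Ep300, an acetyltransferase, was called lower in RE (-0.22) and KO (-0.21), as was Ptges3, the p23 co-chaperone (-0.21 and -0.19).

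A 24 h rhythm was called for 12 of these 19 chaperones and co-regulators in RE, 0 in KO and 9 in WT, beside 46.8%, 0.0366% and 34.8% of all genes. Hsp90aa1, which keeps the receptor ready to bind hormone, had an amplitude of 0.68 peaking at ZT19.4 in RE and 0.95 peaking at ZT19.2 in WT. Fkbp4 peaked at ZT21.8 in RE and ZT19.6 in WT. These peaks lay late in the night in both genotypes.

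Glucocorticoid receptor target genes, 18 in all, had a called rhythm in 14 cases in RE, 0 in KO and 13 in WT, beside 46.8%, 0.0366% and 34.8% of all genes. Per1, a clock gene that the receptor also induces, had an amplitude of 1.18 peaking at ZT13.4 in RE and 1.23 peaking at ZT12.6 in WT. The rhythm difference of RE from KO was called for 3 targets. They were Per1 (1.28, adjusted p = 0.00471), the gluconeogenic enzyme Pck1 (1.40, adjusted p = 0.0166) and Tsc22d3 (0.84, adjusted p = 0.0450), which encodes the anti-inflammatory protein GILZ. That difference was called for 3.07% of all genes, or 336 genes, and for 145 to 686 without 1 liver. With RE and KO fitted alone it was called for 2 genes of all, so the 3 target calls cannot all hold there. In level, 8 targets were called higher and 2 lower in RE against WT, and 8 higher and 4 lower in KO against WT, with medians of 0.29 and 0.36. Of all genes, 45.9% and 42.3% were called in these comparisons. Cdkn1a, a cell cycle inhibitor, averaged 35.0 ± 36.2 FPKM in RE, 21.1 ± 10.6 FPKM in KO and 4.11 ± 3.35 FPKM in WT livers.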

How the data were processed

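TopHat and the mm10 build are named per the submitters' processing notes; versions, annotation and the program behind the FPKM are not stated in the sources used here. FPKM values, as scaled by the authors, were deposited for 24346 gene symbols in 54 libraries. The table holds no read counts, so depth is not known and precision rests on the spread between livers. Column numbers (0, 1 and 2) name livers and differ from the numbers in the sample titles, so columns were assigned to groups only.

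Values were analysed as log2(FPKM + 1). A gene was tested if any group averaged 1 FPKM or more (10932; 13414 were left out). A single limma fit (version 3.58.1, R 4.3.3) covered all 18 groups (eBayes with trend, 36 residual degrees of freedom) and was tested on simulated data; tests of differences were two-sided. Rhythms were tested with cosine and sine contrasts. The members, gene lists, motifs and marker lists were chosen with earlier results of these data known. Named from the lists were members and, per comparison, up to 3 called genes of smallest adjusted p; other values of those genes, Hsd11b2 and genes at extremes were added after their values were seen. Promoter windows and gene positions are RefSeq's (GRCm38.p6). Alternatives were another pseudocount, other filters, 2 rescalings, no trend, genotypes fitted alone, and leaving out each liver.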

Additional observations from a re-analysis of the deposited data

Results flagged for a closer look

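The 24 h rhythm of 4 of the 6 genes differed from that of WT livers by a test of the difference itself. In RE livers the difference was 0.816 for Serpina6, 0.566 for Akr1d1, 0.536 for Srd5a1 and 0.496 for Nr3c2. In KO livers it was 0.614 for Serpina6 and 0.523 for Akr1d1. All are lengths on the log2(FPKM + 1) scale with adjusted p-values of 0.000489 to 0.0361. Of all genes, 14.1% were called in RE and 9.06% in KO. The Srd5a1 value rested on RE ZT16 liver 2, without which it was 0.34 (adjusted p = 0.0643). In KO the Akr1d1 call was lost without any 1 of 14 livers and the Serpina6 call without 1 liver. Both KO calls were lost with no filter (adjusted p = 0.0888 and 0.0557). The Srd5a1 call of RE was lost with no filter too (adjusted p = 0.0785), and with RE and WT fitted alone (adjusted p = 0.0596). Groups of 3 livers were too small for a test of single outlying livers.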

How the results depend on the processing

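No paired analysis was possible because the columns carry numbers of their own that do not match the replicate numbers of the sample titles. The level differences of Serpina6, Nr3c2, Hsd11b1 and Srd5a1 from WT kept their call and direction in RE and KO under every alternative that tested them; Nr3c2 was not tested at a filter of 5 FPKM. The members with a rhythm called in RE numbered 3 with no filter, 2 with RE fitted alone and 3 to 5 without 1 liver. With WT fitted alone, 5 had a difference between times. Rhythm differences of KO from WT numbered 0 with no filter, 1 after rescaling every library to the same sum and 0 to 2 without 1 liver. Those of RE from KO numbered 2 after that rescaling and 0 to 2 without 1 liver. The level call between RE and KO was lost with these genotypes fitted alone (0 called); single-time calls between them numbered 0 with no filter, 0 with the genotypes alone and 1 to 3 without 1 liver. Single-time calls numbered 11 to 16 in RE and 10 to 13 in KO against WT without 1 liver. The Srd5a1 level difference of RE from KO turned to 0.0421 without RE ZT16 liver 2, the highest of its values without 1 liver, of which the lowest was -0.128. The cause of these changes was not tested. Of 58 calls of single members, 13 were lost with no filter, 8 with genotypes fitted alone, 5 after rescaling, 2 with a pseudocount of 0.1, 1 with median-of-ratios scaling and 0 with no trend. Of the list genes called in level, 0 changed sign under either rescaling.

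Over all genes, a rhythm was called for 5116 genes in RE, or 3107 with RE fitted alone, and for 4 in KO, or 1 after rescaling or alone. The KO count was 0 without KO ZT16 liver 1 or 2 and 161 without KO ZT8 liver 1, and 14 livers each moved it by over 1.5 times. A difference between times was called for 4298 genes in RE, or 1161 alone, for 5 in KO, or 17 with no filter, 2 with a filter of 5 FPKM or no trend and 1 alone, and for 2573 in WT, or 4396 alone. Rhythm differences of RE from KO numbered 336, or 120 with no filter and 2 alone, 145 without RE ZT12 liver 2 and 686 without KO ZT8 liver 2. Level calls between RE and KO numbered 21, or 473 after rescaling, of which 3.59% were higher in RE instead of 38.1%, and 0 alone, and 13 without RE ZT8 liver 2 or 172 without RE ZT8 liver 0. Of the level calls between RE and WT, 52.7% were higher in RE, or 35.8% after rescaling. Single-time calls between RE and KO numbered 437, or 212, 987 and 7 with no filter, after rescaling and alone, and 78 without KO ZT16 liver 1 or 927 without RE ZT8 liver 0.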
